A study of Mus musculus with 20 samples.

Results

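The account below describes the unperturbed transcriptome of mouse bone-marrow-derived macrophages, taken from the 10 wild-type libraries (WT Rep1 to Rep10) among the 20 of the series. These libraries were selected by their genotype label alone, and no contrast between groups was made. Marrow came from C57BL/6 mice of 4 to 5 months, per the labels, and was grown for 6 days in CSF-1 (M-CSF) at 50 ng/ml on dishes from which non-adherent cells were washed away. The wild-type mice carried no Trem2 change and were littermates of a TREM2 knockout line and a TREM2 R47H line, with no label tying a library to either line or giving the sex of the animals. Each library is labelled as a separate replicate, and the design text speaks of separate animals. Levels are in FPKQ, a measure per length of transcript on a scale set for each library, so genes of different length can be compared with each other, within the limits of that unit.

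Macrophages are phagocytes that take up dead cells, microbes and lipoproteins and break them down in lysosomes. Marrow precursors become macrophages when CSF-1 binds its receptor Csf1r, and the ETS factor Spi1 (PU.1) sets much of the macrophage gene programme. Their surface carries receptors for antibody, complement, lipids and microbial products, many of which signal through the adaptors Tyrobp and Fcer1g and the kinase Syk. Cultures in CSF-1 alone are commonly used as a resting state before stimulation.

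The 10 libraries had similar summed levels, on a scale set for each library, but differed in depth. Their FPKQ values summed to between 556288 and 602182, and 10721 to 10882 genes per library reached 1 FPKQ. Low values lay on steps of 1 fragment in 87.3% ± 0.866 of cases (SD, n = 10), within a tolerance of 0.1 fragment. From these steps, 1 FPKQ in a gene of 2 kb rested on 61.8 ± 5.17 fragments, from 57.0 in WT Rep6 to 71.9 in WT Rep8. Estimated fragments on genes with a single transcript ran from 2834435 in WT Rep7 to 3776484 in WT Rep8. For counting error alone, 3 fragments in a gene of 2 kb, the limit that a count of 0 allows, equalled 0.0418 to 0.0526 FPKQ per library. Pearson correlations of log2 values over the 45 pairs of libraries ran from 0.984 to 0.996, across genes, which are not independent replicates, and 0 pairs held identical values. Gm42418, a gene model that overlaps ribosomal RNA, ranged from 145.6 to 1324 FPKQ and was highest in WT Rep2. Its part in any level given here was not tested.

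Promoter stretches of 6 genes are printed here because the genes they belong to mark the points the levels turn on. The lysozyme pair Lyz2 and Lyz1 shows the wider difference of the 2 gene pairs found to be at least 90% identical in coding sequence. Spp1 and C1qb are the leading matrix and complement transcripts, and Cd68 and Lamp1 encode paired glycoproteins of the lysosomal membrane with nearly equal levels. All are from RefSeq on GRCm38.p6, written 5′ to 3′ on the gene's strand, and end at the base before the most 5′ start site, except the lysozyme stretches, which are 200 bases long and end 50 bases before it. The lysozyme stretches lie at chr10:117282323-117282522 for Lyz2 and chr10:117292919-117293118 for Lyz1, both on the minus strand, and are 74.0% identical.
Lyz2: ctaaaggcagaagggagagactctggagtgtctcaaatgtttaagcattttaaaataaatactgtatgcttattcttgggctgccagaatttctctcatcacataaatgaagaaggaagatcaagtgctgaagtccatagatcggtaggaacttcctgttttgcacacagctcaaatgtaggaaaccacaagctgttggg
Lyz1: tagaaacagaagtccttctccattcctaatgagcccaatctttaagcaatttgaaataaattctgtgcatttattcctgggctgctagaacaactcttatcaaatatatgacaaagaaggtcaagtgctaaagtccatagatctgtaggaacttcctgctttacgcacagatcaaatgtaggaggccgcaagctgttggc
Spp1, at chr5:104434861-104435110 on the plus strand, is shown with GAGGAAGT in capitals, a form of the site PU.1 is known to bind, which starts at position -113 from the start site.
Spp1: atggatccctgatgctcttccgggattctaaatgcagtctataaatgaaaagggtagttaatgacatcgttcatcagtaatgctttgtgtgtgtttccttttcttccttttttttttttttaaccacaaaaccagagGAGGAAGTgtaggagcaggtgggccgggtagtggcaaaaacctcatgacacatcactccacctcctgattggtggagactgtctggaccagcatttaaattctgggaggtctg
C1qb, at chr4:136886201-136886450 on the minus strand, is shown with the shorter form GAGGAA in capitals, at -30.
C1qb: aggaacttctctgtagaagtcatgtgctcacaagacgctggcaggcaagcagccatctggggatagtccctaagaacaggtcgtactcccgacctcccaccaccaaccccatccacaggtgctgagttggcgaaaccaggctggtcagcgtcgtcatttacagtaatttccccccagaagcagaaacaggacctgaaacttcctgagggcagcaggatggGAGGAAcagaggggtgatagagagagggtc
Cd68, at chr11:69666171-69666420 on the minus strand, is shown with TGANTCA in capitals, the letters AP-1 factors are known to bind, at -149 and -24.
Cd68: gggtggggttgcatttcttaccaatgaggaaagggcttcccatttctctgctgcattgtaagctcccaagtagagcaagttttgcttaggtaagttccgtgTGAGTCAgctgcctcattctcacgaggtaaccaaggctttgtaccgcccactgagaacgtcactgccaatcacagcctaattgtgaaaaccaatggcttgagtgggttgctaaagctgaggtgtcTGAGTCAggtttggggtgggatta
Lamp1, at chr8:13158911-13159160 on the plus strand, is shown with TCACGTG in capitals on either strand, the E-box letters known for the lysosomal factors Tfeb and Tfe3, at -62, -45, -28 and -16.
Lamp1: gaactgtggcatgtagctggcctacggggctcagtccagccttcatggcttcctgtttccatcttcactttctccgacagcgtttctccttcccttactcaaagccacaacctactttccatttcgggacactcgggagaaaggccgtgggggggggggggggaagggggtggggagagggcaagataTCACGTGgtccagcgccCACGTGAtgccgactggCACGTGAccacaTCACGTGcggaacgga

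Each motif was searched on both strands in the 250 bases before 32851 RefSeq start sites. GAGGAA was in 23.3% of all stretches, in 30.2% of the 53 that belong to genes of at least 1000 FPKQ and in 22.5% of those of genes under 0.1 FPKQ. GAGGAAGT, which contains GAGGAA, was in 2.44%, 5.66% and 1.95% of the same sets. TGANTCA was in 6.75%, 7.55% and 8.16%, and TCACGTG in 3.13%, 3.77% and 2.03%. TATAAA, the TATA box letters, was in 12.4%, 20.8% and 16.8%. Over the 6437 stretches of genes of at least 10 FPKQ, GAGGAA was in 23.8% and GAGGAAGT in 2.95%. In that larger set TGANTCA was in 4.46%, TCACGTG in 5.76% and TATAAA in 6.21%. For the 791 stretches of genes of at least 100 FPKQ these shares were 24.0%, 3.67%, 5.31%, 6.45% and 8.47%. The set of 53 stretches is small, and the larger sets do not share its high TATAAA value. The 4 matches of TCACGTG before Lamp1 were shared in number by few other genes: 15 of the 32851 stretches held at least 4. Not every motif present was put in capitals above: the Cd68 stretch also holds GAGGAA and the Spp1 stretch also holds TATAAA, both left in lower case. Letters of a C/EBP site, also searched, matched before Cd68 and Lyz1 and not before Lyz2. They were in 9.56% of all stretches, 11.3% of the 53 and 10.7% of those of genes under 0.1 FPKQ. These matches describe letters in a window and name no bound factor.

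A secreted enzyme and the iron-storage chains headed the messenger RNA of these cells. Lyz2, the macrophage lysozyme that cuts bacterial cell walls (chromosome 10, 117277331 to 117282321, minus strand, GRCm38), was the most abundant transcript at 20996 ± 1092 FPKQ (SD, n = 10), with a lowest, median and highest library of 19363, 20973 and 22665. Fth1, the heavy chain of ferritin that oxidises iron for storage (chromosome 19, 9980598 to 9985098, plus strand), followed at 19311 ± 934 with 17630, 19566 and 20467. Ftl1, the light chain, was the third at 12021 ± 1097 with 10157, 11879 and 13973. Lyz2 lay above Fth1 in 9 of the 10 libraries and their ranges overlapped, whereas Fth1 lay above Ftl1 in all 10 with no overlap. These 3 genes held 8.94% ± 0.244 of the summed level, and the 30 most abundant named genes held 23.6% ± 0.325 (23.2% to 24.1%).

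Lysosomal proteins took the next 2 places and recurred further down the 30. Ctsd, an aspartic protease of the lysosome, stood at 7566 ± 464, Psap, the precursor of the saposins that help lysosomal enzymes reach their lipids, at 6745 ± 252, and the cysteine proteases Ctsb and Ctss at 4502 ± 159 and 4401 ± 507. Psap and Ctsb were among the steadier of the 30, with coefficients of variation (CV, the SD as a percentage of the mean) of 3.73% and 3.53%. Cst3, a secreted inhibitor of such proteases, was present at 1750 ± 155. Gpnmb, a transmembrane glycoprotein of lysosomes and phagosomes, stood at 2942 ± 274 and Grn, the precursor of lysosomal granulins, at 1458 ± 79.9. The perforin-like Mpeg1 of the phagosome had a level of 1618 ± 138.

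Secreted lipid and matrix proteins were also among the 30. Spp1, the phosphoprotein osteopontin, was the sixth at 6106 ± 1133, with a lowest, median and highest library of 4736, 6068 and 7931. Apoe, which loads cholesterol onto lipoproteins, was the tenth at 4659 ± 981, with 3199, 4786 and 5816. Their CVs of 18.6% and 21.1% were the highest among the 30. Spp1 ran from 4736 to 5727 in WT Rep1 to Rep5 and from 6408 to 7931 in WT Rep6 to Rep10. Those numbered sets did not overlap, which held for 12.9% of all genes of at least 10 FPKQ. Apoe was at 3997, 3269, 4174 and 3199 in Rep6, Rep7, Rep8 and Rep10 and at 5763 in Rep9. Lpl, the lipase that releases fatty acids from lipoproteins, was at 1948 ± 281, Selenop, a selenium carrier, at 1733 ± 203, and Lgals3, a galectin that binds sugars at damaged membranes, at 4959 ± 381.

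The other genes among the 30 serve translation, the cytoskeleton, antigen presentation and redox balance. They were the elongation factor Eef1a1 (5385 ± 207), the translationally controlled protein Tpt1 (3400 ± 276), the ribosomal proteins Rps9 (1564 ± 137) and Rplp1 (1438 ± 210.1), the actin-binding peptide Tmsb4x (5148 ± 458), the actins Actb (2188 ± 215) and Actg1 (1662 ± 57.7), the calcium-binding S100a4 (2559 ± 413), the class I light and heavy chains B2m (4193 ± 295) and H2-D1 (1959 ± 181), the membrane protein Itm2b (1744 ± 75.5), the complement chain C1qb (1694 ± 202), the adaptor Fcer1g (1464 ± 151) and the peroxidase Prdx1 (1348 ± 176). The order within the 30 was mostly not resolved: 27 of the 29 neighbouring pairs had overlapping ranges, and 4 pairs had the same order in all 10 libraries. At the edge of the list Prdx1 at 1348 was the last inside and Ifitm3, an interferon-induced membrane protein, at 1327 the first outside.

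**Figure D1:**
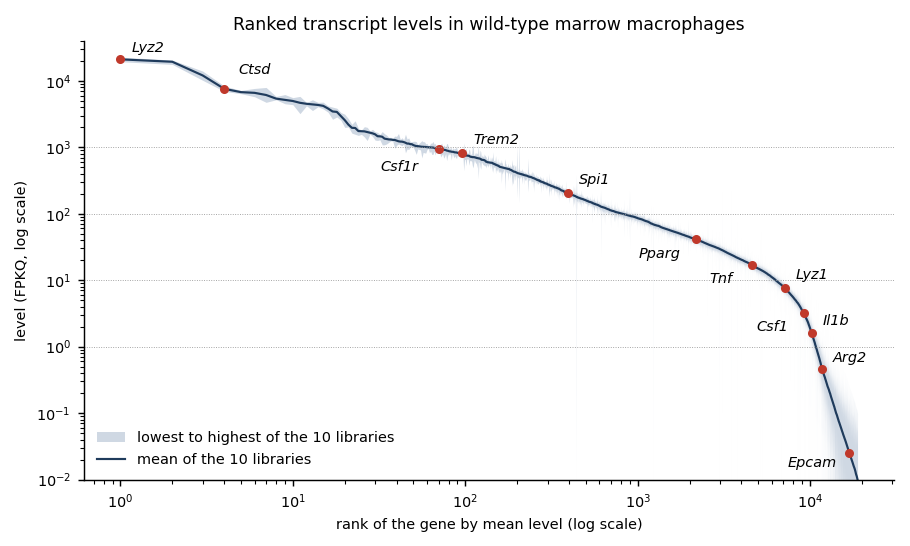
Mean level of each gene in FPKQ (vertical log axis) against its rank (horizontal log axis) over 10 wild-type libraries, with the band from the lowest to the highest library and dotted lines at 1, 10, 100 and 1000 FPKQ. Levels fall from 20996 FPKQ for Lyz2 through 935 for Csf1r and 202 for Spi1 to under 1 for Arg2, and the band widens below 1 FPKQ.

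The whole distribution was broad. Of 51456 gene symbols, 29175 were listed at 0 in all 10 libraries, 10803 had a mean of at least 1 FPKQ, 6313 of at least 10, 811 of at least 100 and 60 of at least 1000. The 811 genes of at least 100 FPKQ held 66.8% of the summed level and the 60 of at least 1000 held 31.8%. Of 21545 symbols that the annotation calls protein-coding, 10129 (47.01%) reached 1 FPKQ and 45.3% were under 0.1. A mean of at least 10 was reached by 28.5% of them and of at least 100 by 3.64%. Counts of list members given below are to be read against these shares. At the border of 1000 FPKQ, the ribosomal gene Rps6 at 1002 was just inside and Sirpa at 999.2 just outside.

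By class, ribosomal proteins took the largest share of the sum among the classes counted. The 89 cytosolic ribosomal protein genes held 8.70% ± 0.603 (SD, n = 10), the 2 ferritin chains 5.35%, 36 genes of the actin cytoskeleton 3.44% and 18 cathepsins 3.24%. Translation factors held 1.90%, nuclear genes of oxidative phosphorylation 1.32%, and MHC class I 1.31%. S100 proteins and annexins held 1.21%, chaperones 1.19%, the proton-pumping V-ATPase of the lysosome 0.789%, glycolysis 0.792% and the proteasome 0.589%. The 3 C1q chains held 0.497%, chemokines 0.2005% and MHC class II, which presents peptides to helper T cells, 0.156%. The MHC class II sum also varied most among these, from 515.8 to 1226 FPKQ.

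Genes encoded by the mitochondrial genome were not analysed here, but nuclear copies of them carried high values. The 7 unprocessed pseudogenes Gm28661, Gm28437, Gm10925, Gm29216, Gm28439, Gm28438 and Gm10222 on chromosome 1 (24611535 to 24616197, minus strand, GRCm38) were at least 98.8% identical to mt-Co2, mt-Co3, mt-Atp6, mt-Co1, mt-Nd4, mt-Nd3 and mt-Nd4l. Together they held 3.59% ± 0.188 of the summed level, and 5 of them were at or above 1000 FPKQ, led by Gm28661 at 6579 ± 592. Reads of the mitochondrial genes and of these copies cannot be told apart at such identity, so the 7 were left out of the ranking of named genes.

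Receptors made up 3.19% ± 0.0689 of the summed level. Of 267 receptor genes in 15 lists, 40 had a mean of at least 100 FPKQ, 112 of at least 10 and 156 of at least 1, and 70 were under 0.1. The shares over all protein-coding symbols were 3.64%, 28.5%, 47.01% and 45.3%. Csf1r, the receptor for the growth factor in the medium (chromosome 18), was at 935 ± 40.3, with a lowest, median and highest library of 884, 927 and 999 and a CV of 4.31%. Csf2ra, the alpha chain of the GM-CSF receptor, was at 123 ± 10.2. Csf3r, the G-CSF receptor of neutrophils, was at 29.8 ± 4.03, and Kit, the stem cell factor receptor, at 4.42 ± 0.600.

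Scavenger receptors held 0.408% of the summed level, Fc receptors and their adaptor 0.396% and receptors for dead cells 0.201%. Cd68, a scavenger-type glycoprotein of the lysosome, was at 1290 ± 37.3, and the adaptors Fcer1g and Tyrobp at 1464 ± 151 and 1259 ± 99.5. Trem2, which senses lipids and is the gene altered in the mutant lines of this series, was at 806 ± 60.6, with 690.5, 811 and 901 for the lowest, median and highest library. Cd36, a receptor for oxidised lipoproteins, was at 567 ± 126 and reached its highest level of 856 in WT Rep9. Among receptors for antibody, the low-affinity Fcgr3 (554 ± 34.8) lay above the high-affinity Fcgr1 (141 ± 22.5), Fcgr4 (61.6 ± 9.47) and the inhibitory Fcgr2b (37.9 ± 4.90). Of receptors for dead cells, Axl was at 53.05 ± 12.3 and Mertk at 14.1 ± 3.18, while the related Tyro3 was at 0.0296 ± 0.0174 and the phosphatidylserine receptor Timd4 at 0.0411 ± 0.0345, at or near the level of 3 fragments.

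Inhibitory receptors held the largest share of the 15 receptor lists at 0.583%, and Toll-like receptors held 0.322%. Sirpa, which binds Cd47 on healthy cells, was at 999 ± 32.6, Lilrb4a at 646 ± 52.01 and Cd72 at 456 ± 41.4. Among genes of the Toll-like receptor system, the co-receptor Cd14 was at 731 ± 118 and Unc93b1, which moves nucleic acid sensors to endosomes, at 481 ± 42.8. The endosomal sensors of RNA led the receptors themselves, with Tlr13 at 132 ± 9.80, Tlr7 at 104 ± 8.18 and Tlr8 at 61.6 ± 8.89. The surface receptors Tlr2 for lipoproteins and Tlr4 for lipopolysaccharide were at 53.04 ± 7.11 and 40.4 ± 3.57, and Tlr5 for flagellin and Tlr11 at 0.173 ± 0.0732 and 0.0858 ± 0.0433. Tlr13 ranged from 121.0 to 153 and Tlr7 from 88.1 to 117, both above the highest Tlr2 library at 64.9.

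Among other receptor lists, complement receptors were led by the beta-2 integrin Itgb2 (423 ± 56.5), the anaphylatoxin receptors C3ar1 (288 ± 18.7) and C5ar1 (239.6 ± 20.9), and the integrin alpha chain Itgam (221 ± 15.8). C-type lectins were led by the inhibitory Clec12a (311 ± 24.7), Clec4d (261 ± 22.2) and the beta-glucan receptor Clec7a (187 ± 37.1). Cxcr4, the receptor for Cxcl12, was the only chemokine receptor of 23 at or above 100 FPKQ (110.1 ± 7.88). Ccr2, which brings monocytes out of the marrow, was at 34.02 ± 5.60 and Cx3cr1 at 17.98 ± 2.37. Of the 23, 11 were under 0.1, a share near the 45.3% of all protein-coding symbols. Cytokine receptors were led by Il10rb (184 ± 7.17) and the TNF receptor Tnfrsf1b (178 ± 10.6), whereas the signalling IL-1 receptor Il1r1 was at 0.0986 ± 0.0439. The ATP-gated channel P2rx4 (164 ± 8.76), the UDP receptor P2ry6 (92.3 ± 4.28) and the platelet-activating factor receptor Ptafr (103 ± 7.83) led the nucleotide and lipid mediator lists. Trem1, an activating relative of Trem2, was at 0.0480 ± 0.0225.

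Transcription factors held 0.734% ± 0.0201 of the summed level over 200 genes, less than the receptors, although the median gene was not lower, at 5.35 FPKQ for factors and 4.03 for receptors. Of these, 8 had a mean of at least 100 FPKQ, 87 of at least 10 and 125 of at least 1, and 53 were under 0.1. For all protein-coding symbols the shares were 3.64%, 28.5%, 47.01% and 45.3%. Atf3, a stress-induced repressor of the AP-1 type, was highest at 243 ± 33.3, with 183, 248 and 278 as its lowest, median and highest library. Spi1, the macrophage-determining ETS factor, was at 202 ± 14.3 with 184, 198 and 229.5, and Nfe2l2, the NRF2 activator of antioxidant genes, at 199 ± 18.3. The other 5 at or above 100 FPKQ were Irf5 (134 ± 7.76), which acts below Toll-like receptors, the stress factors Atf4 (128 ± 19.2) and Xbp1 (101 ± 9.43), the inhibitor of E proteins Id2 (109 ± 25.3) and Klf6 (108 ± 7.04). The ranges of Atf3, Spi1 and Nfe2l2 overlapped.

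Factor families differed in how their level was divided. Spi1 lay above the next ETS factor Etv3 (40.9 ± 2.98) in every library, since its lowest library was at 184 and the highest of Etv3 at 44.1. Of the interferon regulatory factors, Irf8, needed for monocyte development, was at 97.2 ± 4.64, and 8 of the 9 reached 1 FPKQ. Irf7, an interferon-induced factor, was more uneven, at 79.9 ± 16.9 with a range of 46.2 to 101. In the STAT family all 7 genes reached 1 FPKQ, and Stat6, which acts below the IL-4 receptor, was at 81.6 ± 4.36. Maf, a large Maf factor known for the mature, non-dividing macrophage state, was at 78.9 ± 8.35. All 4 MiT/TFE factors, which switch on lysosomal genes, reached 10 FPKQ: Tfe3 (70.8 ± 3.76), Tfeb (33.5 ± 1.68), Mitf (28.7 ± 2.72) and Tfec (11.3 ± 1.16). Cebpa was at 40.2 ± 4.02 and Cebpb at 13.9 ± 3.03.

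Of 11 factors that mark macrophages of particular tissues, 3 had a mean of at least 10 FPKQ, 6 of at least 1 and 3 were listed at 0. Pparg, needed by alveolar macrophages and a regulator of lipid uptake, was the highest of that list at 40.9 ± 3.84, and the oxysterol receptor Nr1h3 was at 16.04 ± 2.44. Spic, which drives red pulp macrophages of the spleen, was at 0.734 ± 0.273. Gata6 of peritoneal macrophages, and Sall1 and Sall3 of microglia, were listed at 0 in all 10 libraries. No member of the GATA family reached 1 FPKQ, and Gata2, a stem and mast cell factor, was the highest at 0.141 ± 0.0529. Of 49 nuclear receptors, 19 (38.8%) reached 1 FPKQ and 23 were under 0.1, and the sterol sensor Nr1h2 led at 46.6 ± 3.16. The share under 0.1 was near the 45.3% of all protein-coding symbols, of which 47.01% reached 1 FPKQ.

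Genes for secreted and lysosomal proteins held 13.1% ± 0.374 of the sum over 263 genes, of which 39 were at or above 100 FPKQ and 96 under 0.1. Among all protein-coding symbols 3.64% were at or above 100 FPKQ and 45.3% under 0.1. Complement was represented mainly by C1q: C1qb stood at 1694 ± 202, C1qc at 916 ± 128 and C1qa at 303 ± 46.95. Properdin (Cfp), which stabilises the alternative convertase, was at 163 ± 13.3 and C3, the central component, at 36.3 ± 7.32, while 14 of the 26 complement genes were under 0.1. Lipid handling was led by Apoe and Lpl, followed by the phospholipid transfer protein Pltp (1286 ± 139) and the lysosomal acid lipase Lipa (810.3 ± 54.05). Mmp12, the macrophage elastase, was the highest metalloproteinase at 681 ± 246 but ranged from 335 to 1080.

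Some chemokines and growth factors were abundant, and Tnf, Il1b, Il6 and Il12a were lower. Ccl9 (459 ± 36.03) and Ccl6 (340.2 ± 61.2), related CC chemokines of mouse myeloid cells, lay well above Ccl3 (107 ± 19.3), Ccl4 (58.3 ± 13.2) and Ccl2 (48.3 ± 12.03). The growth factors Igf1 (200.2 ± 16.9) and Tgfb1 (198 ± 12.6) were similar in level and their ranges overlapped. Mif, stored in the cytoplasm of many cells, led the cytokines at 170.5 ± 16.5, and the IL-1 receptor antagonist Il1rn was at 52.4 ± 11.5. Tnf was at 16.8 ± 1.72 with a range of 14.2 to 19.6, Il1b at 1.63 ± 0.394, and Il6 at 0.00494 ± 0.0118, under the level of 3 fragments. Il12a was listed at 0. Of 45 cytokine genes, 16 (35.6%) reached 1 FPKQ and 24 were under 0.1, and all 21 interferon genes were under 0.1. The shares of all protein-coding symbols were 47.01% at 1 FPKQ or more and 45.3% under 0.1. Fewer producing cells and less RNA per cell cannot be told apart in these bulk samples.

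**Figure D2:**
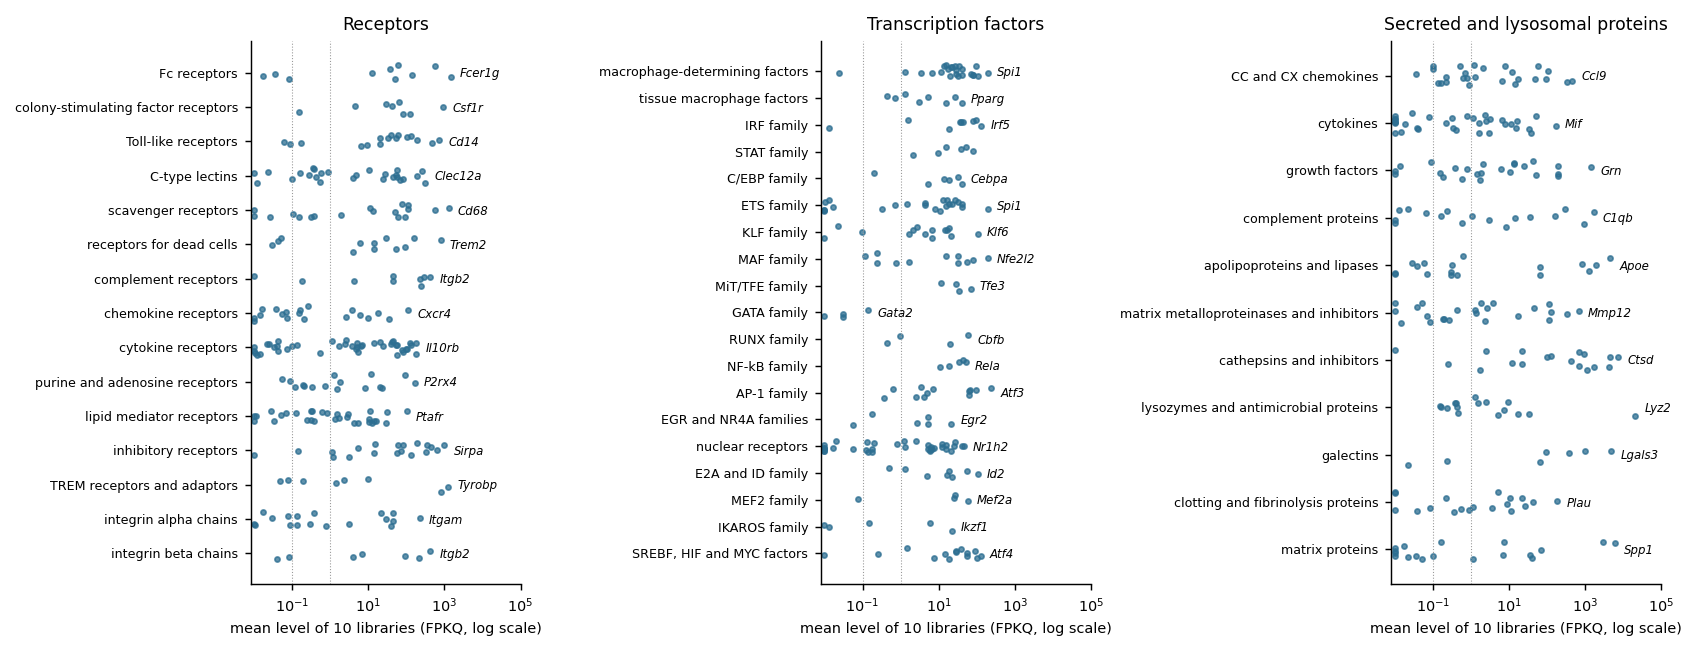
Mean level over 10 wild-type libraries (horizontal log axis, FPKQ) of genes in 15 lists of receptors, 19 of transcription factors and 11 of secreted and lysosomal proteins, with the leading gene of most lists named; points at the left edge are at or below 0.01 FPKQ, and dotted lines mark 0.1 and 1. Receptors reach 1464 FPKQ (Fcer1g), factors 243 (Atf3) and secreted or lysosomal products 20996 (Lyz2), and the GATA family lies wholly near or below the line at 0.1.

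Choice between related genes was examined in 94 families, of which 92 had a leading gene of at least 1 FPKQ. In 37 of the 92 a single gene held at least 90% of the family's summed level, and in 23 it held at least 99%. The leader was first in all 10 libraries in 87 families, and its range overlapped that of the runner-up in 7. In the arginases and the nitric oxide synthases no gene reached 1 FPKQ: Arg2 was at 0.463 ± 0.210, Arg1, an enzyme of the IL-4 response, at 0.0288 ± 0.0423, and Nos2, the inducible synthase of the interferon response, at 0.0352 ± 0.0289.

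The lysozymes were the more one-sided of the 2 pairs of leader and runner-up at least 90% identical in coding sequence. Less similar pairs could be more one-sided, such as Eef1a1 and Eef1a2 (80.3% identical), with a median ratio of 4329. Lyz2 held 99.96% ± 0.0215 of the summed level of the pair, and Lyz1 was at 7.57 ± 4.06. The ratio of Lyz2 to Lyz1 had a median of 3329 and ran from 1071 to 5583. Lyz1 in WT Rep1 to Rep10 was at 4.60, 5.79, 3.88, 6.04, 5.24, 7.58, 7.75, 7.09, 9.68 and 18.1 FPKQ. Replicate 10 therefore stood apart in Lyz1, whereas Lyz2 in that library was its lowest value of 19363. The coding sequences of the pair, 444 bases each, are 95.1% identical, so the authors' estimates could assign some fragments of one gene to the other, and the level of Lyz1 is uncertain.

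Several glycolytic families were settled on 1 isoform. Pkm among the pyruvate kinases was at 1030 ± 77.4 with Pklr of liver and red cells listed at 0, Pgk1 at 362 ± 32.1 with the testis copy Pgk2 listed at 0, and Aldoa at 820.1 ± 36.9 held 96.9% ± 0.364 of the aldolases. Ldha (507 ± 39.4), which forms lactate, held 99.1% ± 0.203 against Ldhb (4.55 ± 0.913). Phosphofructokinases and hexokinases were divided: Pfkp (34.3 ± 2.23) held 54.2% ± 1.43 with Pfkl at 19.4 ± 2.07, while Hk3, a myeloid isoform, held 75.8% ± 0.785 at 146 ± 9.09 and the widespread Hk1 was at 37.7 ± 2.39. Among 8 facilitative glucose carriers, Slc2a6, found on lysosomes, was at 54.9 ± 7.76 and above the plasma membrane carrier Slc2a1 (17.99 ± 3.81) in all 10 libraries, with a ratio of 1.75 to 4.53.

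Lysosomal acidification used shared and partner subunits unequally. Atp6v1b2 (441 ± 34.7) held nearly all of the V-ATPase B subunits, with the kidney form Atp6v1b1 at 0.00907 ± 0.0287. Of the a subunits, Tcirg1, known for osteoclasts, led Atp6v0a1 at 354 ± 32.6 against 201 ± 27.3. Of the d subunits, Atp6v0d1 (134 ± 8.29) and the osteoclast form Atp6v0d2 (131 ± 31.8) could not be ordered: the first was higher in 8 of 10 libraries and the ratio ran from 0.648 to 1.73. Lamp1 (1305 ± 56.05) and Cd68 (1290 ± 37.3) also could not be ordered, each being higher in 5 of 10 libraries.

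Signalling families were more evenly divided. Lyn, a Src-type kinase below Fc receptors and integrins, was at 80.95 ± 3.31. Btk (47.9 ± 2.69) and Tec (47.6 ± 4.77) were level, with a median ratio of 0.995 (0.928 to 1.11). Among Rac-type GTPases Rhog (199 ± 17.1) and Rac1 (186 ± 8.86) overlapped, with Rhog higher in 7 of 10. Syk (95.03 ± 4.25) stood alone against its T cell relative Zap70 (0.0187 ± 0.0188), and Plcg2 (47.3 ± 2.31) held 91.3% ± 0.956 against Plcg1 (4.48 ± 0.473). Pik3cd (47.9 ± 1.57), the leukocyte catalytic subunit of PI3K, was 1.99 to 2.50 times Pik3cg (21.4 ± 1.49).

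Stress and lipid enzymes showed further choices. Cybb (357 ± 24.7), the catalytic subunit of the phagocyte oxidase, held 99.7% ± 0.0665 of its family. Hmox1 (349.5 ± 37.1), which degrades heme, was 2.49 to 3.51 times the constitutive Hmox2 (122 ± 7.29). Fabp5 (1010 ± 104) was 6.86 to 8.81 times Fabp4 (132 ± 15.7), both carriers of fatty acids, and Scd2 (89.03 ± 7.97) was 7.01 to 10.6 times Scd1 (10.5 ± 2.37), although the desaturases are 89.9% identical in coding sequence. Ptgs1 (4.67 ± 1.65), the constitutive cyclooxygenase, lay above the inducible Ptgs2 (0.347 ± 0.0867) in all 10 libraries. Tuba1b and Tuba1c, at 350.4 ± 37.6 and 110.3 ± 10.1, are 98.0% identical in coding sequence, and their split is uncertain.

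**Figure D3:**
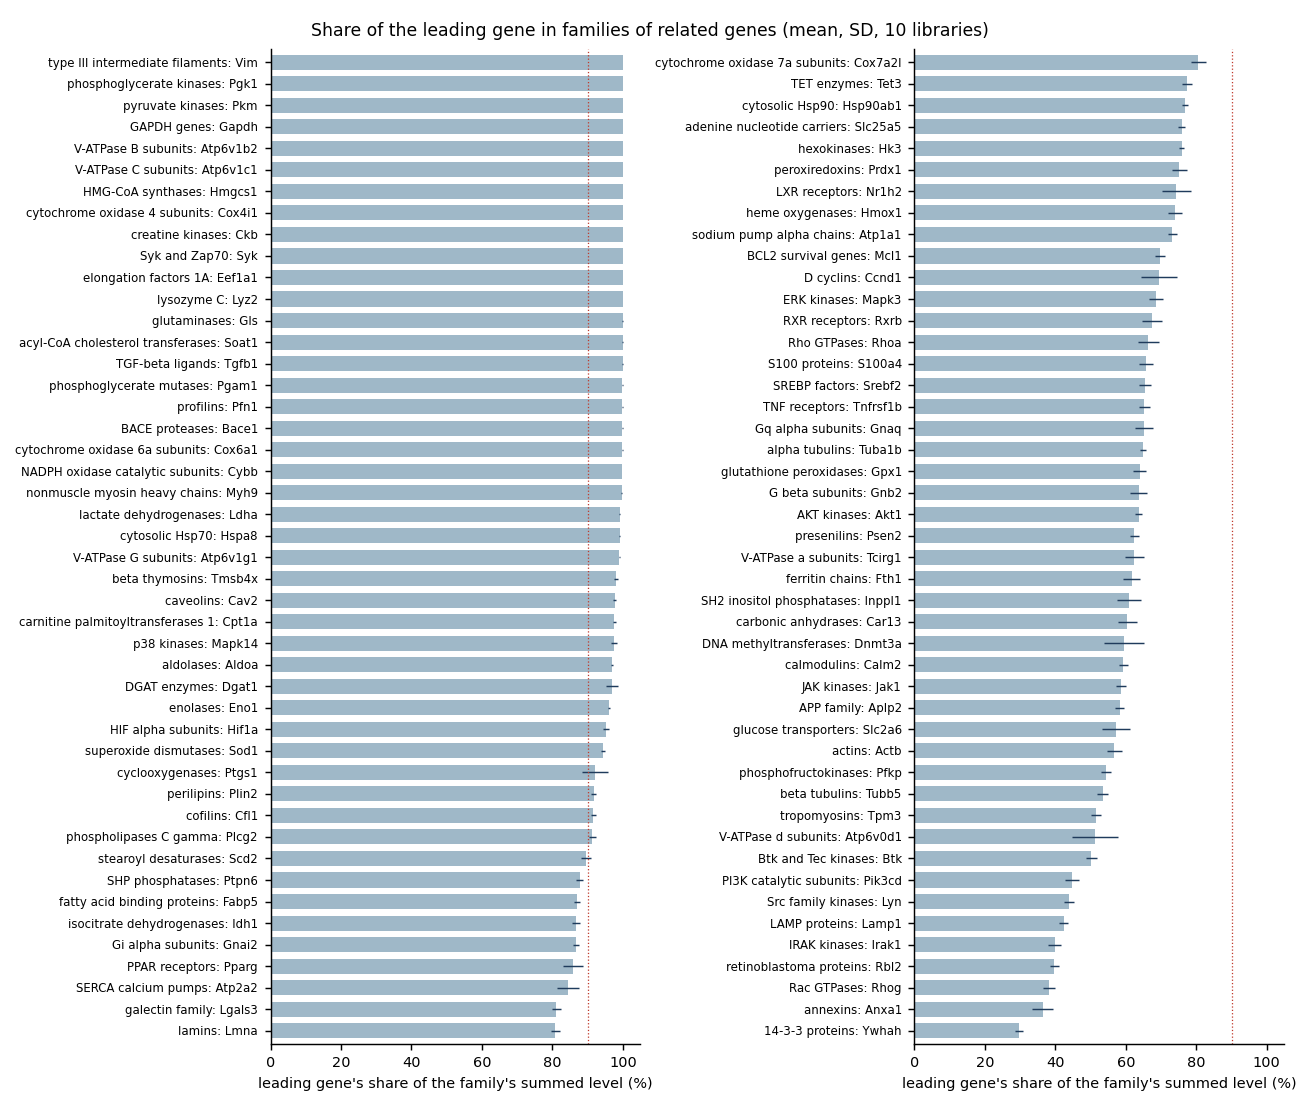
Share of a family's summed level held by its leading gene (bars from 0, percent; error bars, SD over 10 wild-type libraries) in 92 families, ordered by share, with the dotted line at 90%. The 37 families at the top reach the line, led by genes such as Vim and Pkm, while the 14-3-3 proteins, annexins and Rac GTPases have no gene near 50%.

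Subunits of a complex and ligands beside receptors, 26 pairs chosen after their values were seen, mostly differed in level. Fth1 was 1.60 times Ftl1 in the median library (1.38 to 1.85). C1qb was 5.67 times C1qa (5.15 to 6.14) and 1.85 times C1qc (1.72 to 2.03), although the 3 chains form 1 molecule in equal number. Cybb was 0.412 times its partner Cyba (834 ± 96.9; 0.376 to 0.537). Cd14 was 36.1 times Ly96 (20.1 ± 2.11), the other co-receptor of Tlr4 (28.5 to 46.2). Il2rg was 8.92 times Il4ra (14.2 ± 2.99), which together form an IL-4 receptor (6.24 to 11.6).

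Csf1r was 293 times its ligand Csf1 (3.22 ± 0.456), with a range of 240.5 to 351.5, in cells that received CSF-1 in the medium. Some receptors and ligands were present together: Gas6, the bridging ligand of Axl, was at 270.0 ± 37.8 and exceeded Axl in all 10 libraries, and C3ar1 was 8.26 times C3. Ccl9 was 82.7 times Ccr1 (6.14 ± 2.41), a receptor for it, with a range of 46.9 to 144.8. Cxcl12, the ligand of Cxcr4 made by stroma, was at 0.0991 ± 0.0817. Levels of RNA do not give the amounts of protein, which were not measured.

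Of 16 macrophage marker genes, all 16 had a mean of at least 10 FPKQ and 12 of at least 100. The marker lists were written with earlier results of these data known, so they are no independent check of the macrophage label. Besides those above, Laptm5, a lysosomal protein of blood cells, was at 837 ± 66.1. Of 162 genes in 19 lists for other lineages, 91 were under 0.1 FPKQ, 30 of them listed at 0 in all 10 libraries, and 34 reached 1 FPKQ. Of all protein-coding symbols, 45.3% were under 0.1 and 47.01% reached 1 FPKQ, so many genes of any kind were as low. All 8 epithelial markers were under 0.1, led by Cdh1 at 0.0562 ± 0.0228. Of 10 fibroblast and stroma markers 7 were under 0.1 and Acta2 was highest at 0.269 ± 0.126, and of 10 erythroid markers 9 were under 0.1, with the globins Hba-a1 at 0.0594 ± 0.0959 and Hbb-bs at 0.0770 ± 0.0988.

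Several genes that usually mark other blood cells were nonetheless well above the floor. In the T cell list Il7r (101 ± 12.5), a cytokine receptor chain, and Cd28 (42.01 ± 4.53), a co-stimulatory receptor, were high while Cd3e was at 0.00452 ± 0.00955 and 7 of 10 were under 0.1. In the B cell list Ighm, the immunoglobulin mu chain, was at 76.1 ± 6.09 with a range of 69.2 to 87.5, while Cd79b was at 1.66 ± 0.376 and Cd79a at 0.0940 ± 0.0663. In the megakaryocyte list Vwf (21.8 ± 1.58) and Pf4 (17.6 ± 2.73) stood above Itga2b (0.292 ± 0.115) and Gp9 (0.0678 ± 0.101). These genes were present in every library at similar levels, with the lowest libraries at 85.6 for Il7r, 33.2 for Cd28, 69.2 for Ighm and 18.6 for Vwf. The summed level of each list ranged from 127.4 to 168 for T cells, 70.6 to 89.5 for B cells and 35.6 to 44.4 for megakaryocytes. The part of other cells in these values was not tested.

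Myeloid relatives gave intermediate levels. Of 13 neutrophil markers, S100a9 (33.6 ± 8.29), Csf3r and S100a8 (17.9 ± 3.83) were at or above 10 FPKQ, and the granule genes Ngp (5.22 ± 1.22), Ltf (1.497 ± 0.359) and Camp (0.463 ± 0.174) were lower. The list summed to between 73.9 and 110.6 FPKQ per library. Of monocyte markers Ccr2 was highest and Ly6c2 was at 2.95 ± 0.992. Of osteoclast markers, cells that also arise under CSF-1, Atp6v0d2 was at 131 ± 31.8, Ctsk at 22.6 ± 6.71, Dcstamp at 15.1 ± 5.64, Acp5 at 9.93 ± 1.96 and Mmp9 at 2.58 ± 1.05. The dendritic cell list was low, with Batf3 at 3.43 ± 0.898 and Flt3 at 0.152 ± 0.0795. Trf, the transferrin gene in the hepatocyte list, was at 156 ± 13.6 while Apoa1 was at 0.00339 ± 0.0107 and 5 of 8 hepatocyte genes were listed at 0.

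Genes named for macrophages of particular tissues were split. Fcrls (116 ± 15.0), used for microglia, was abundant, whereas P2ry12 was at 1.85 ± 0.464 and Sall1 listed at 0. Cd5l (123 ± 22.8), a secreted protein of Kupffer cells, and Folr2 (238 ± 40.5), a folate receptor of resident macrophages, were above 100 FPKQ, while Clec4f was listed at 0 and Timd4 near the floor. Hmox1 and Siglec1 (60.7 ± 9.05), a sialic acid receptor, led the red pulp list, with the iron exporter Slc40a1 at 34.8 ± 8.77, Vcam1 at 1.84 ± 0.793 and Cd163 at 1.88 ± 0.237. In the alveolar list Pparg was followed by Chil3 at 9.65 ± 2.21, and Marco, a scavenger receptor, was at 0.153 ± 0.130.

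Some families foreign to the lineage lay mostly near the floor. They come from a longer set of families, of which others stood higher. For example, 7 of 44 Fox genes and 6 of 99 cytochrome P450 genes had a mean of at least 10 FPKQ. Of all protein-coding symbols, 45.3% were under 0.1, 47.01% reached 1 FPKQ and 28.5% reached 10. Of 1102 olfactory receptors 1088 were under 0.1 FPKQ and 1 reached 1 FPKQ, Olfr111 at 2.18 ± 1.07. All 327 vomeronasal receptors and all 9 Pax genes were under 0.1. Of 39 Hox genes, 2 reached 1 FPKQ and 35 were under 0.1.

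**Figure D4:**
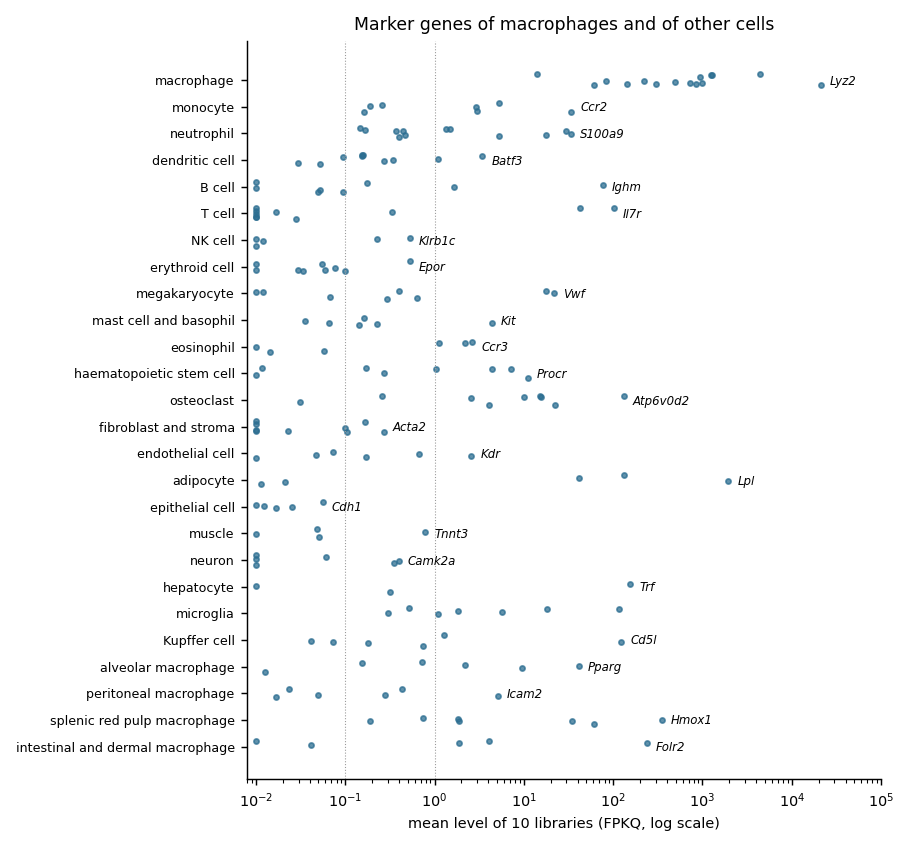
Mean level over 10 wild-type libraries (horizontal log axis, FPKQ) of marker genes for macrophages and 25 other cell types, with the highest gene of most lists named; points at the left edge are at or below 0.01 FPKQ and dotted lines mark 0.1 and 1. The macrophage markers plotted lie at or above 10, and most points of the epithelial, erythroid, muscle and neuron lists lie under 0.1.

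Most genes of at least 10 FPKQ varied little between the 10 libraries. Over all genes with a mean above 0 the median CV was 28.7%. Over the 6313 genes of at least 10 FPKQ the median CV was 7.59%, with 3.95% and 17.4% as the 5th and 95th percentiles. A CV under 5% was found for 955 genes (15.1%) and one of 30% or more for 58 (0.919%). The median CV was 17.3% for genes between 1 and 3 FPKQ, 10.2% between 3 and 10, 7.17% between 30 and 100 and 8.05% at 300 and above. For 368 genes with a single transcript, the median CV of 8.78% compared with 2.24% for counting error alone. Tpm3, a tropomyosin, was the steadiest at 334 ± 4.04 and a CV of 1.21%, followed by Lman2, a cargo receptor, at 57.8 ± 1.06 and Ppp1r9b, an actin-binding scaffold, at 68.01 ± 1.45. Arpc2 of the actin-nucleating complex, at 585 ± 14.2, and the mitochondrial chaperone Hspa9, at 97.95 ± 2.40, were also among the 10 steadiest named genes.

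The largest spread belonged to sex-linked genes. Xist, transcribed from the inactive X chromosome of female cells, was at 33.1 to 41.7 FPKQ in WT Rep1, Rep2, Rep3 and Rep10 and at 0.0296 or less in the other 6. The Y-linked Eif2s3y was at 46.1 to 54.6 in those 6 and listed at 0 in WT Rep1, Rep2, Rep3 and Rep10, and Ddx3y was at 21.4 to 25.4 and at 0.0200 or less. The 10 libraries therefore comprised 4 with Xist and 6 with Y-linked transcripts, a division that the labels do not give and that crosses the replicate numbers. Gdf3, a TGF-beta family ligand, had the next largest CV of 64.1% and was highest in the same 4 libraries, at 84.9, 91.6, 101 and 72.0 in WT Rep1, Rep2, Rep3 and Rep10, against 8.77 to 42.9 in the others. Colec12, a scavenger receptor, was likewise highest in these 4 (13.5 to 23.8, against 9.53 to 11.1). The part of sex in these values was not tested.

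Some of the most variable genes, picked after their values were seen, differed between the numbered sets of replicates. Dusp1, a phosphatase that limits MAP kinase signals, was at 8.64 to 10.5 FPKQ in WT Rep1 to Rep5 and at 20.02 to 34.5 in WT Rep6 to Rep10. Fos, an AP-1 factor, was at 42.3 to 49.1 and at 73.8 to 104, Myc, a growth factor response gene, at 9.08 to 11.7 and at 16.6 to 24.3, and Ier3 at 8.46 to 11.1 and at 13.1 to 21.0. In these 4 of the 20 named genes of largest CV the numbered sets did not overlap, and over all genes of at least 10 FPKQ they did not overlap in 12.9%. The 20 were chosen by their spread in these libraries, so the count supports nothing. The sample list places the first set before the knockout and the second before R47H, and litter, date and handling cannot be told apart from the numbering. The libraries with Xist were also unequally divided, with WT Rep1, Rep2 and Rep3 in the first set and WT Rep10 in the second. The part of sex in the differences between the sets was not tested.

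Among the other variable genes the numbered sets overlapped, in several by few libraries. Malat1, a nuclear long non-coding RNA, ranged from 214 to 683 FPKQ and was highest in WT Rep6 and Rep8. Itgax, the CD11c integrin chain, ranged from 23.1 to 82.9 and was highest in WT Rep9, as were Mmp12 at 1080 and Cd36. Mmp12 ran from 335 to 595 in WT Rep1 to Rep5 and from 594 to 1080 in WT Rep6 to Rep10. Tmsb10, an actin-binding peptide, ranged from 44.3 to 164. Scand1, Snhg8 and Rps12 were also among the 20, with CVs of 52.2%, 37.4% and 37.0%, and each had its highest library in the first set and its lowest in the second. Of the 50 symbols of largest CV before names were considered, 26 were unnamed models or copies of other genes, for which shared reads make a level uncertain.

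**Figure D5:**
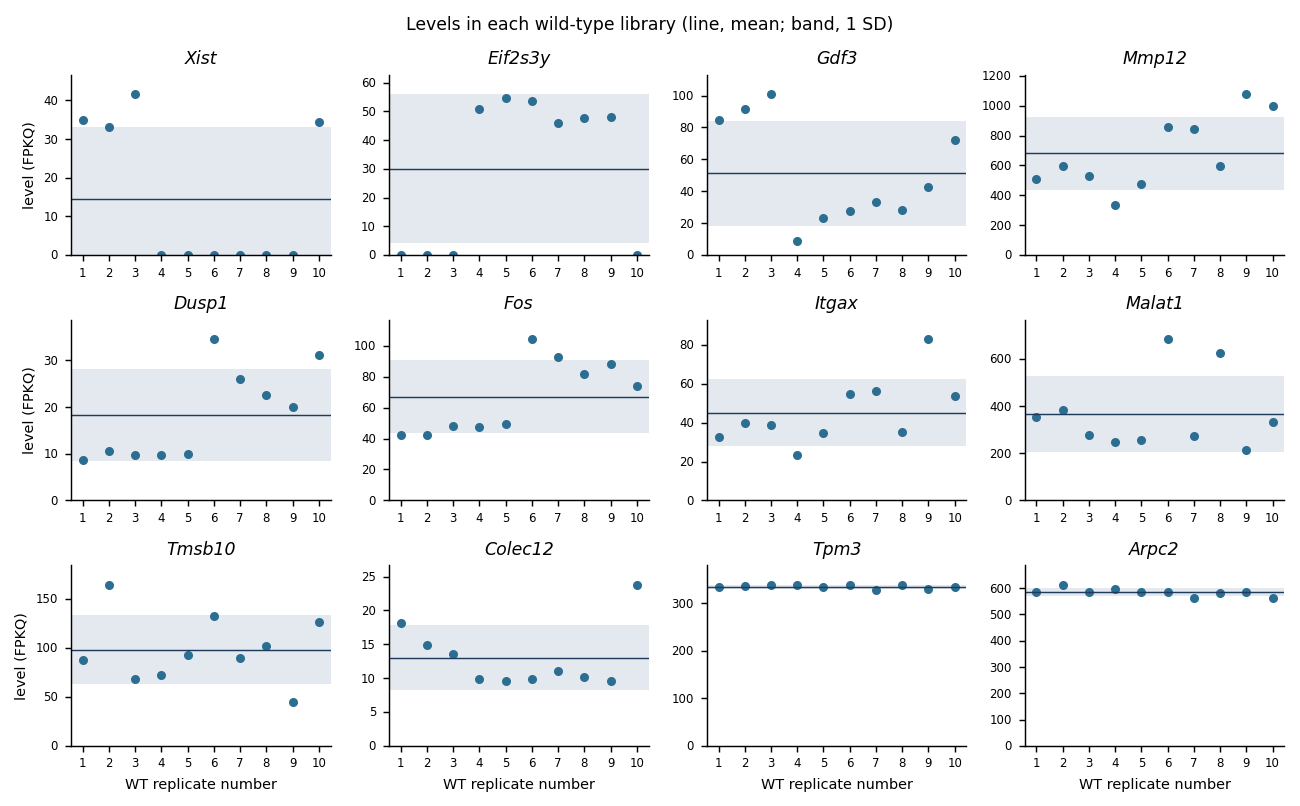
Level in FPKQ (vertical axis from 0) of 12 genes in each of 10 wild-type libraries (horizontal axis, replicate number), with the mean as a line and 1 SD as a band. Xist is present in replicates 1, 2, 3 and 10 and Eif2s3y in the other 6, Dusp1 and Fos separate replicates 1 to 5 from 6 to 10, and Tpm3 and Arpc2 are nearly flat.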

How the data were processed

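Poly-A RNA of 10 wild-type libraries of bone-marrow-derived macrophages was sequenced as strand-specific paired reads of 75 bases, per the labels' protocols. The authors deposited 1 table per library of FPKQ values, handled as FPKM per gene symbol on a scale of its own for each library. Not given in the sources used here: how FPKQ was defined, and the aligner. The submitters' processing notes name RSEM and GRCm38, without versions. Such estimates can divide fragments between similar genes.

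Files were read in Python 3.11.15 with numpy 2.4.6 and pandas 2.3.3. The mean, SD and CV over the 10 libraries were computed on FPKQ as deposited, with no filter except where a minimum is stated. No group was compared, so p-values are absent, and the only test run was Dixon's gap test for a library that stands apart. GENCODE M21 on GRCm38 held 45889 of the 51456 symbols (89.2%) and gave positions, gene types and coding identity. Depth was estimated from low values of single-transcript genes of at least 600 bases. The CV and the search for libraries that stand apart were tested on simulated data. Replicate spread may include culture and library preparation as well as the animal.

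The members and gene lists were chosen with earlier results of these data known. Named genes were the 30 highest by mean (leaving out unnamed models, pseudogenes and mitochondrial genes), up to 6 highest of each list of receptors, factors and secreted proteins with textbook genes under 0.1 FPKQ, leader and runner-up of families, the highest and lowest markers of each lineage, the 20 largest and 10 smallest CVs, and sex-linked genes. Genes outside this rule, such as the partners in pairs, Gm42418, the mitochondrial copies and the middle ranks of lists, were chosen after their values were seen. Alternatives changed the averaging, the scale, the thresholds and the libraries used. Some genes that the rule names are not reported here.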

Additional observations from a re-analysis of the deposited data

Results flagged for a closer look

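Of 229 named genes whose mean reached 1 FPKQ, 15 had 1 library that stood apart from the other 9 by Dixon's gap test. With normally distributed values, chance alone gives this in about 1 of 20 genes. Some of the 229 were named for a large spread, so that rate need not hold for them. The share over all genes is not given here, so the count describes the named genes only. WT Rep9 was the library in 6 of the 15 and WT Rep10 in 4. In WT Rep9 the lipid genes Cd36 (855.8 FPKQ, against 411.8 to 639 in the others), Lipa (943, against 744 to 842) and Nr1h3 (21.9, against 12.96 to 17.3) were highest, as were the factor Cebpa (50.3, against 35.7 to 41.5) and the mitochondrial copy Gm28439 (1608, against 1119 to 1337). The Tlr4 co-receptor Ly96 was lowest there at 15.4, against 19.2 to 22.4.

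In WT Rep10 the lysozyme copy Lyz1 was at 18.1 (3.88 to 9.68 in the others) and the heme oxygenase Hmox1 at 438, against 302 to 366. In the same library the lipid transfer gene Pltp was lowest at 965.5 (1234 to 1472) and the chemokine receptor Cxcr4 lowest at 91.7 (104.9 to 118).

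In WT Rep8 the lectin Clec12a was highest at 370.5 (287 to 326) and the receptor chain Il10rb highest at 203 (178 to 187). In WT Rep7 the V-ATPase subunit Atp6v0d1 was lowest at 114.8 (130.5 to 145). Gm42418, which overlaps ribosomal RNA, was highest in WT Rep2 at 1324 (145.6 to 496.5), and the neutrophil granule gene Ngp highest in WT Rep1 at 7.92 (3.36 to 5.68).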

How the results depend on the processing

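No paired analysis was possible because the results come from no test and from a single group. The counts of genes at or above 1, 10, 100 and 1000 FPKQ, of families led by 1 gene and of lineage markers under 0.1 FPKQ stayed within 1.5 times their reported value under each alternative run (median, geometric mean, equal sums, either numbered set of 5, each library left out, other thresholds). Leaving out each library in turn gave 10789 to 10811, 6308 to 6321, 805 to 820 and 58 to 64 genes, 37 to 37 families, 89 to 92 markers, a share of the 30 most abundant genes of 23.6% to 23.7% and a median CV of 7.19% to 7.69%. The share of the 30 was 24.5% without the mitochondrial copies in the sum, an alternative chosen after seeing the data. The planned sum without the mitochondrial genome could not be formed, since no symbol analysed here begins with mt-. The median CV of 7.59% was 5.50% in WT Rep1 to Rep5 alone, 6.97% in WT Rep6 to Rep10 alone, 9.04% with a minimum of 1 FPKQ and 28.7% with none, where the cause was not tested. Of the 20 named genes of largest CV, 17 were shared with the 20 of largest SD of log2(FPKQ + 1). No named level moved by 1 SD under equal sums. The median and a mean over 5 of the 10 libraries cannot lie further than 1 SD from the mean, so they test nothing here. Depth limits levels under 0.0418 to 0.0526 FPKQ in a gene of 2 kb.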

Other observations

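Membrane carriers and trafficking genes, grouped by symbol, add to the account of the phagocytic cell, with examples chosen after their values were seen. Of 367 solute carriers, 11 had a mean of at least 100 FPKQ, 106 of at least 10 and 157 were under 0.1. These counts were near the shares over all protein-coding symbols, 3.64%, 28.5% and 45.3%. Slc6a6, the taurine carrier, was at 389.8 ± 27.8 (SD, n = 10), Slc37a2, a sugar phosphate carrier, at 157 ± 14.3, and Slc11a1, which moves metal ions out of the phagosome, at 137 ± 9.17. Of 59 Rab GTPases 42 reached 1 FPKQ, led by Rab7 of the late endosome at 377 ± 24.9 and Rab5c of the early endosome at 164 ± 4.33. Tetraspanins were led by Cd63 of late endosomes at 1216 ± 66.8, Cd9 at 641 ± 79.3 and Cd53 at 384 ± 24.0. Ms4a7 (284 ± 23.2) and Ms4a6c (115 ± 20.1) led the Ms4a family, in which 11 of 19 were under 0.1. Adgre1, which encodes the F4/80 antigen, was the only adhesion receptor of 27 at or above 100 FPKQ (497 ± 42.1).

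MHC class II genes were among the more uneven immune genes. Cd74, the invariant chain, was at 500.1 ± 117, with a lowest, median and highest library of 286, 489.8 and 654. H2-Aa, H2-Ab1 and H2-Eb1, chains of the peptide-binding dimers, were at 146 ± 40.7, 112 ± 36.3 and 96.4 ± 27.2. All 4 were lowest in WT Rep10, and their highest values lay in WT Rep1, Rep2 or Rep3.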
